A study of Homo sapiens with 60 samples.

Results

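Gene expression was compared in A549 cells, an established human lung adenocarcinoma line, between a high dose (500 µg/mL) and a low dose (20 µg/mL) of an ethanol extract of Pinelliae Tuber, each given for 24 h. The members are the 6 RNA sequencing libraries that the labels assign to these doses, 3 for each dose, of 60 libraries in the series. Pinelliae Tuber is the dried tuber of Pinellia ternata, used in East Asian herbal medicine against nausea, cough and phlegm. The medium dose of the extract (100 µg/mL, 3 libraries) and the DMSO vehicle (3 libraries) are given beside the doses as levels. The vehicle is labelled 0.1% DMSO on the samples and 2% in the series text, which was not settled here. A second ethanol extract, of Zingiberis Rhizoma Recens (fresh ginger), with 3 libraries at 500 µg/mL and 3 at 20 µg/mL for 24 h, served as a comparison of dose changes. An ethanol extract of Scutellariae Radix (190, 38 and 7.6 µg/mL for 24 h, 9 libraries) shared the fit of the Pinellia doses and entered no contrast. All titles carry the same batch letter. The sample codes begin alike for Pinellia and Scutellariae Radix, and differently for fresh ginger and for the vehicle. If the codes mark sets handled apart, a set difference cannot be told apart from a difference between Pinellia and vehicle levels. The labels do not tell whether the 3 libraries of a dose are separate cultures. If they are not, the spread behind the p-values is technical.

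A549 cells are epithelial cells that grow attached to plastic. Attached cells hold on to a surrounding matrix through adhesion receptors, pull on it with actin and myosin, and carry caveolae, small flask-shaped pits of the plasma membrane. TGF-beta signalling raises many genes of matrix, protease control and contractile filaments in such cells, and signals through G proteins are shut off by RGS proteins.

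The 9 Pinellia libraries held 21.54 to 26.79 M expected counts (M, mega) and 23205 to 23883 detected genes each, and the 3 vehicle libraries 25.37 to 30.81 M. The epithelial markers KRT8, KRT18 and KRT7 were each at 1840 CPM (read counts scaled to a common library size) or more in every Pinellia library, and EPCAM lay at 4.41 to 5.8 CPM. The blood cell markers PTPRC, CD3D, CD3E and MS4A1, the fibroblast marker FAP and the neural marker STMN2 were at 0 in all 9. Other neural markers were present, with TUBB3 at 139 to 153 CPM, SNAP25 at 38.1 to 46.6 CPM and SYT1 at 31.7 to 36 CPM. The endothelial marker EGFL7 lay at 20.4 to 25.5 CPM, and PECAM1 at 0.0464 CPM or less. The summed level of the 10 fibroblast markers was 42.2 to 43.6 CPM at 500 µg/mL and 39.9 to 41.8 CPM at 20 µg/mL, most of it COL1A1, and that of the 10 blood cell markers was 10.9 to 11.6 CPM against 8.05 to 10.8 CPM, most of it CD68. Both sums were a little higher in every high-dose library, and their part in the results was not tested. Mitochondrial transcripts took 9.14% to 10.5% of counts at the high dose and 8.61% to 10.3% at the low dose. In each of the doses compared, 1 library stood apart from the others of its dose. Over 10968 genes, low-dose replicate 1 had a chi-square per gene of 6.64 and 5.64 against replicates 2 and 3, which differed from each other by 2.37. High-dose replicate 3 had 4.83 and 5.39 against replicates 1 and 2, which differed by 2.69.

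The high and low doses differed little. Of 16582 genes tested with edgeR's quasi-likelihood test (Benjamini-Hochberg adjusted p under 0.05), 11 were called (0.0663%), 10 higher at 500 µg/mL (0.0603%) and 1 lower (0.00603%). At an unadjusted p under 0.05 there were 1070 genes (6.45%), 605 higher (3.65%) and 465 lower (2.8%). The called changes ran from 0.16 to 0.86 in absolute log2 units, and 0 of the 11 reached 2-fold. Among the 10968 genes that averaged 5 CPM or more, 86.5% had a log2 change under 0.1 in size and 97.9% under 0.2, with a median standard error of 0.054. For 98.9% of them the 95% confidence interval lay within 0.5 of 0. The libraries of both doses did not overlap for any of the 11 called genes, and they did not overlap for 13.3% of all genes tested, 7.3% in the higher and 5.99% in the lower direction. The number of calls depended on single libraries. Without low-dose replicate 1 it was 2, CCDC80 and RGS2, and without high-dose replicate 1 it was 6, 4 of them among the 11. It also depended on the fit, which held vehicle and Scutellariae Radix libraries besides those of Pinellia. The number was 36 with the 6 compared libraries alone and 66 with the 9 Pinellia libraries alone. With DESeq2, another test, it was 29, and without the filter on low counts 58.

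**Figure D1:**
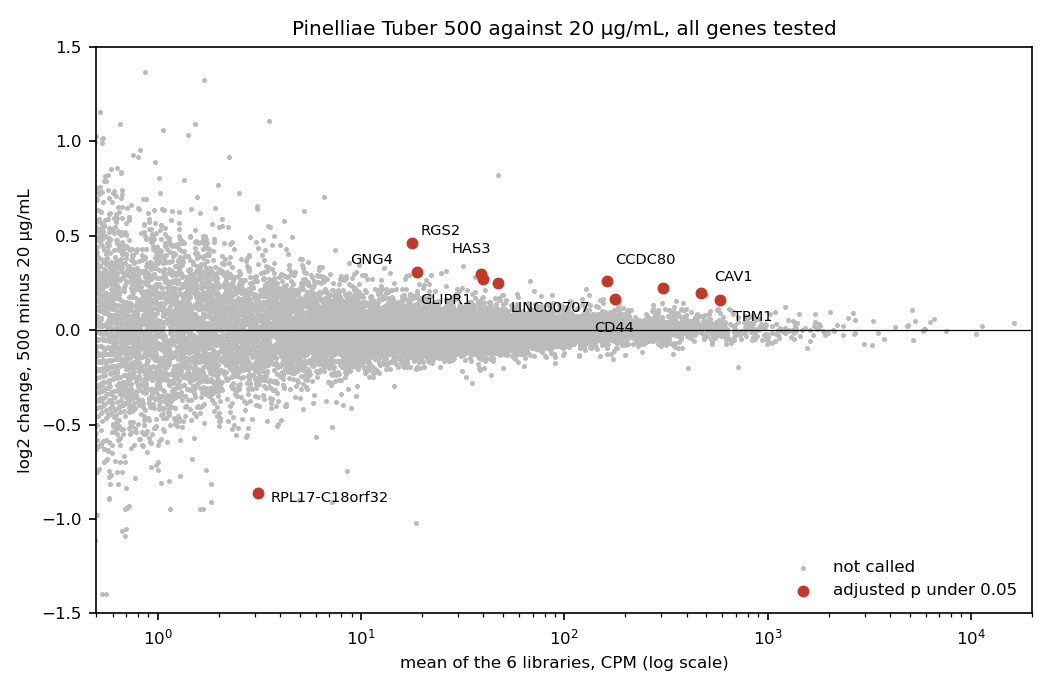
Each point is 1 tested gene, with the mean of the 6 libraries in CPM on a log x axis and the log2 change from 20 to 500 µg/mL on the y axis. The 11 called genes are red, and 10 of them are named. 10 lie above 0 and RPL17-C18orf32, with a change of -0.86, lies below. 1411 genes, 1402 of them with means under 0.5 CPM, fall outside the axes.

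Of the 10 genes that rose, 9 are described here. They encode regulators of G protein signalling (RGS2, GNG4), proteins of the matrix and its receptors (CCDC80, HAS3, CD44), proteins of caveolae and actin filaments (CAV1, TPM1), and GLIPR1 and the long non-coding RNA LINC00707. The RefSeq promoter table (GRCh38.p14) held 7 of the 9, not GLIPR1 or LINC00707, and the 250 bases before the most upstream start in it were searched on both strands. The GC box GGGCGG, the binding site of SP1, was present in 6 of the 7 (RGS2, GNG4, HAS3, CAV1, CD44 and TPM1) and in 42.2% of 27305 genes with a window. The SMAD-binding element CAGACA was present in 2 of the 7, CCDC80 and TPM1, and in 13.6% of all. The dioxin receptor core GCGTG was present in 3, RGS2, GNG4 and HAS3, and in 31.9% of all. The AP-1 site TGANTCA (6.57% of all), the TEAD site GGAATG (12% of all) and the CArG box (1.15% of all) were in 0 of the 7 windows, which says only that these letters are not in these bases. Shown are the windows of RGS2 and CCDC80, the genes called under every leave-one-out fit, and of TPM1, which holds both the GC box and the SMAD-binding element. They lie at chr1:192808789-192809038 on the plus strand (RGS2), chr3:112641144-112641393 on the minus strand (CCDC80) and chr15:63048239-63048488 on the plus strand (TPM1). The CCDC80 and TPM1 windows lie inside the gene spans given below, so the starts used there are not the outermost starts of those spans. Capitals mark GGGCGG and GCGTG in RGS2, CAGACA in CCDC80, and GGGCGG and CAGACA in TPM1, each on either strand.
RGS2: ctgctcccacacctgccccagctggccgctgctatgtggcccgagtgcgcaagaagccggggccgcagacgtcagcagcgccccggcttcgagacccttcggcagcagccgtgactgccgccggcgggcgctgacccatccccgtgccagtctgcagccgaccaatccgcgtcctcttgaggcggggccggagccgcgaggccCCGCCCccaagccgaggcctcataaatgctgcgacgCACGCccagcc
CCDC80: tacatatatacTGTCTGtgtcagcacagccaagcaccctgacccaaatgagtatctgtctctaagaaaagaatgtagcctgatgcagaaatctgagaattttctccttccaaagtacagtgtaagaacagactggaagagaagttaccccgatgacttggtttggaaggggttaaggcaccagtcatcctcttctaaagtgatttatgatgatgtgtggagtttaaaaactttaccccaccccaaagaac
TPM1: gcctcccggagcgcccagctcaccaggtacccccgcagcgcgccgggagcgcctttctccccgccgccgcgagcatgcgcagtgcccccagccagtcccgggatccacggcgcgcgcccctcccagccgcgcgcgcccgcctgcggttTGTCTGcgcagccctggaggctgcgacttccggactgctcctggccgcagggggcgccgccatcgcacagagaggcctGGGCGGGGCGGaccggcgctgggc
RGS2 holds 1 match to GGGCGG and 1 to GCGTG, CCDC80 1 to CAGACA, and TPM1 2 to GGGCGG, which overlap in their letters, and 1 to CAGACA. A match is a description of the sequence, and binding was not measured.

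RGS2 (ENSG00000116741, chr1:192809039-192812283 of GRCh38), which speeds the switching off of G protein alpha subunits, had the largest rise among the called genes. Its levels were 20.2, 21.2 and 20.7 CPM in the high-dose libraries and 16.1, 13.3 and 15.7 CPM in the low-dose libraries, from 462 to 545 and from 313 to 355 expected counts. Every high-dose library lay above every low-dose library. The log2 change was 0.46 ± 0.07 (SE, edgeR adjusted p = 0.00143). The vehicle libraries lay between the doses, at 17.2 to 17.5 CPM. GNG4 (ENSG00000168243, chr1:235547687-235650754) encodes a gamma subunit of G proteins. Its levels were 21.7, 20.5 and 20.3 CPM at the high dose and 16.5, 17.4 and 16.5 CPM at the low dose, again without overlap. The log2 change was 0.31 ± 0.06 (edgeR adjusted p = 0.0102), and the vehicle mean was 19.1 CPM.

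CCDC80 (ENSG00000091986, chr3:112596794-112649530) encodes a secreted protein of the extracellular matrix. It measured 184, 177 and 171 CPM at 500 µg/mL and 148, 153 and 142 CPM at 20 µg/mL. The groups stood apart by more than 15 CPM between their nearest libraries, with a log2 change of 0.26 ± 0.04 (edgeR adjusted p = 0.00143). HAS3 (ENSG00000103044, chr16:69105564-69118719), a synthase of the matrix sugar hyaluronan, measured 42.8, 42.9 and 42.5 CPM against 32.7, 35.5 and 36.2 CPM. Its high-dose libraries were nearly equal and its low-dose libraries spread more, and the log2 change was 0.30 ± 0.05 (edgeR adjusted p = 0.0082). CD44 (ENSG00000026508, chr11:35138870-35232402), a cell surface receptor for hyaluronan, measured 187, 194.5 and 182 CPM against 167, 170.5 and 166 CPM. The groups did not overlap, and the log2 change was 0.16 ± 0.03 (edgeR adjusted p = 0.0118). A synthase of hyaluronan and a receptor for it were thus both among the 9.

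CAV1 (ENSG00000105974, chr7:116524785-116561184), the main coat protein of caveolae, measured 502, 496 and 517 CPM at the high dose and 425, 446 and 451 CPM at the low dose. The nearest libraries of both doses lay more than 40 CPM apart, and the log2 change was 0.20 ± 0.03 (edgeR adjusted p = 0.00143). TPM1 (ENSG00000140416, chr15:63042632-63071915), a tropomyosin that lines actin filaments, measured 641, 603 and 610 CPM against 551, 556 and 554 CPM. The low-dose libraries were close together, high-dose replicate 1 was the highest, and the log2 change was 0.16 ± 0.03 (edgeR adjusted p = 0.0102). GLIPR1 (ENSG00000139278, chr12:75480680-75503853) measured 44.1, 42.5 and 43.9 CPM against 34.5, 36.9 and 36.5 CPM. The groups did not overlap, and the log2 change was 0.27 ± 0.05 (edgeR adjusted p = 0.0178). LINC00707 (ENSG00000238266, chr10:6779549-6879450) measured 50.7, 50.6 and 53.3 CPM against 40.0, 44.7 and 45.3 CPM, with a log2 change of 0.25 ± 0.05 (edgeR adjusted p = 0.0118). Its groups were also apart, with low-dose replicate 1 the lowest library.

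**Figure D2:**
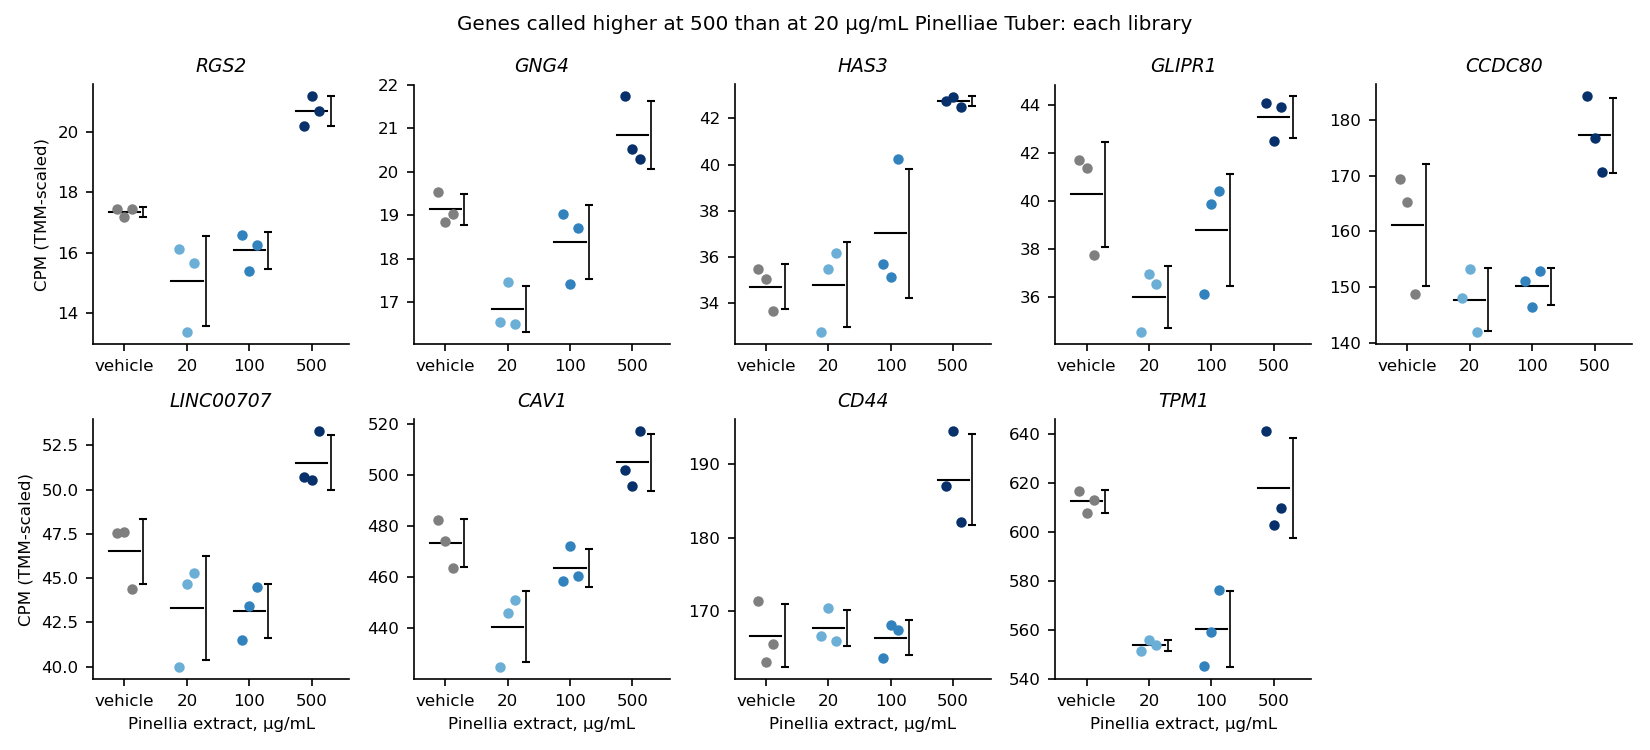
Levels in CPM (TMM-scaled, y axes not starting at 0) of 9 genes that rose, by vehicle and by dose in µg/mL (x axis). Points are libraries, horizontal bars are means and error bars are the SD of 3 libraries. For all 9 genes the 3 libraries at 500 µg/mL lie above those at 20 and at 100 µg/mL, and for 5 genes the vehicle libraries lie above all libraries at 20 µg/mL. The shares of all genes tested are 7.3%, 8.05% and 12.2%. The 9 were chosen for a higher level at the high than at the low dose, which favours these placements.

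The levels of these genes were also set beside the vehicle. The high-dose libraries all lay above the vehicle libraries for 8 of the 9 genes, all but TPM1, and for 12.5% of all genes tested. The low-dose libraries all lay below the vehicle libraries for 5 (RGS2, GNG4, CAV1, TPM1 and GLIPR1), and for 12.2% of all genes. For 4 of the 9, and for 0.157% of all genes, the vehicle stood between both doses without overlap. The 9 were chosen for being higher at the high than at the low dose, which favours these placements, so nothing is read from the counts. TPM1 averaged 613 ± 4.66 CPM (SD, n = 3) in vehicle, 554 ± 2.19 CPM at 20 µg/mL and 618 ± 20.5 CPM at 500 µg/mL, so its vehicle and high-dose libraries overlapped. HAS3 and CD44 had vehicle levels that overlapped the low dose, at 33.6 to 35.5 CPM and 163 to 171 CPM. Differences from the vehicle were not tested here.

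RPL17-C18orf32 (ENSG00000215472, chr18:49481681-49492479) was the 1 gene called lower, and it lies outside the naming rule because its mean is under 5 CPM. It is a readthrough transcript that joins the ribosomal protein gene RPL17 to its neighbour, so its expected counts depend on how reads shared with RPL17 were divided and are uncertain. It measured 1.87, 2.25 and 2.55 CPM at the high dose and 4.24, 4.14 and 3.75 CPM at the low dose, with 3.12 to 3.84 CPM in vehicle. The log2 change was -0.86 ± 0.15 (edgeR adjusted p = 0.00508). In the fit of all 60 libraries the change was also -0.86, with a standard error of 0.41 and an edgeR adjusted p of 0.833. Without high-dose replicate 1 or low-dose replicate 1 its adjusted p was 0.0966 and 0.0675 (edgeR).

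The next genes in the lower direction did not pass the test and are given by their values. TSPAN13, a tetraspanin of the cell membrane, measured 43.2, 38.9 and 38.1 CPM at the high dose and 46.8, 45.6 and 49.5 CPM at the low dose (log2 change -0.24 ± 0.05, edgeR adjusted p = 0.0529). DPY30, a core subunit of histone H3 lysine methyltransferase complexes, had means of 35.6 and 41.2 CPM (-0.21 ± 0.05, adjusted p = 0.0645, edgeR). EPHX1, the microsomal epoxide hydrolase of drug metabolism, had means of 165 and 183 CPM (-0.15 ± 0.03, adjusted p = 0.0682, edgeR). TP53I11 and MYO1D, a class I myosin, had log2 changes of -0.19 and -0.39 with edgeR adjusted p of 0.0779 and 0.162. The high- and low-dose libraries of these 5 genes did not overlap, as was the case for 5.99% of all genes in this direction. Just outside the threshold on the higher side were JAG1, a Notch ligand, at 326, 317 and 314 CPM against 282, 291 and 293 CPM, and NRG1, a ligand of ERBB receptors, at 159, 160 and 156 CPM against 135, 149 and 142 CPM. Both had an edgeR adjusted p of 0.0506 and libraries that did not overlap, as was the case for 7.3% of all genes in the higher direction.

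Among the 46 gene lists used here, 3 had a called member and 43 had none. The list of TGF-beta targets and matrix genes had 1 called member of 29 tested. At an unadjusted p under 0.05, 12 of the 29 were higher and 0 lower, against 3.65% and 2.8% of all genes. Its median log2 change was 0.08, and that of all genes tested was -0.0013. TGFBI, a secreted adhesion protein of the matrix, measured 1264, 1267 and 1296 CPM at the high dose and 1187, 1178 and 1155 CPM at the low dose, with a log2 change of 0.12 ± 0.03 and an edgeR adjusted p of 0.0682. COL5A1, a fibrillar collagen chain, measured 131, 132 and 126 CPM against 113, 119 and 114 CPM (0.17 ± 0.05, edgeR adjusted p = 0.329). The libraries of both genes did not overlap between the doses, as for 7.3% of all genes in this direction, and neither passed the test over all genes. TAGLN, an actin-binding protein of contractile cells, PMEPA1, a feedback inhibitor of TGF-beta signalling, COL4A1, a basement membrane collagen, and CDH2, N-cadherin, had log2 changes of 0.20, 0.11, 0.11 and 0.11 with edgeR adjusted p from 0.215 to 0.542. ITGB6, an integrin subunit that activates latent TGF-beta, had a log2 change of 0.32 at a mean of 6.2 CPM and an edgeR adjusted p of 0.549. The vehicle had no common place among these genes. Its mean was above that of the high dose for PMEPA1 (340 against 324.5 CPM) and TAGLN (41.3 against 39.2 CPM). For TGFBI (1250 CPM), COL5A1 (124 CPM) and CDH2 (98.2 CPM) it lay between the doses. For COL4A1 it was near the low dose, at 90.9 against 90.2 CPM.

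The cytoskeleton list had 1 called member of 21 tested, TPM1, and a median log2 change of 0.04. At an unadjusted p under 0.05, 8 were higher and 0 lower, against 3.65% and 2.8% of all genes. Besides TPM1 these were VCL, vinculin of focal adhesions, ACTN1 and ACTN4, which crosslink actin, FLNA, a filamin, MYL9, a myosin light chain, TPM4, a second tropomyosin, and the tubulin TUBA4A. VCL measured 366, 360 and 364 CPM against 314, 346 and 340 CPM, a log2 change of 0.12 ± 0.03 (edgeR adjusted p = 0.203). ACTN1 measured 444, 429 and 429.5 CPM against 405, 407 and 406 CPM, a log2 change of 0.10 ± 0.03 (edgeR adjusted p = 0.372). These differences are under 15% of the level. The alveolar and epithelial list had 1 called member of 13, CAV1. At an unadjusted p 4 were higher and 1 lower, against the same 3.65% and 2.8% of all genes. The junction genes CLDN1 and CDH1 had log2 changes of 0.12 and 0.13, OCLN of 0.17, and the water and glycerol channel AQP3 of -0.35, with edgeR adjusted p from 0.315 to 0.607. KRT80, a keratin of epithelial cells, measured 140, 136 and 145 CPM against 118, 126 and 126 CPM (0.18 ± 0.04, edgeR adjusted p = 0.0645).

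**Figure D3:**
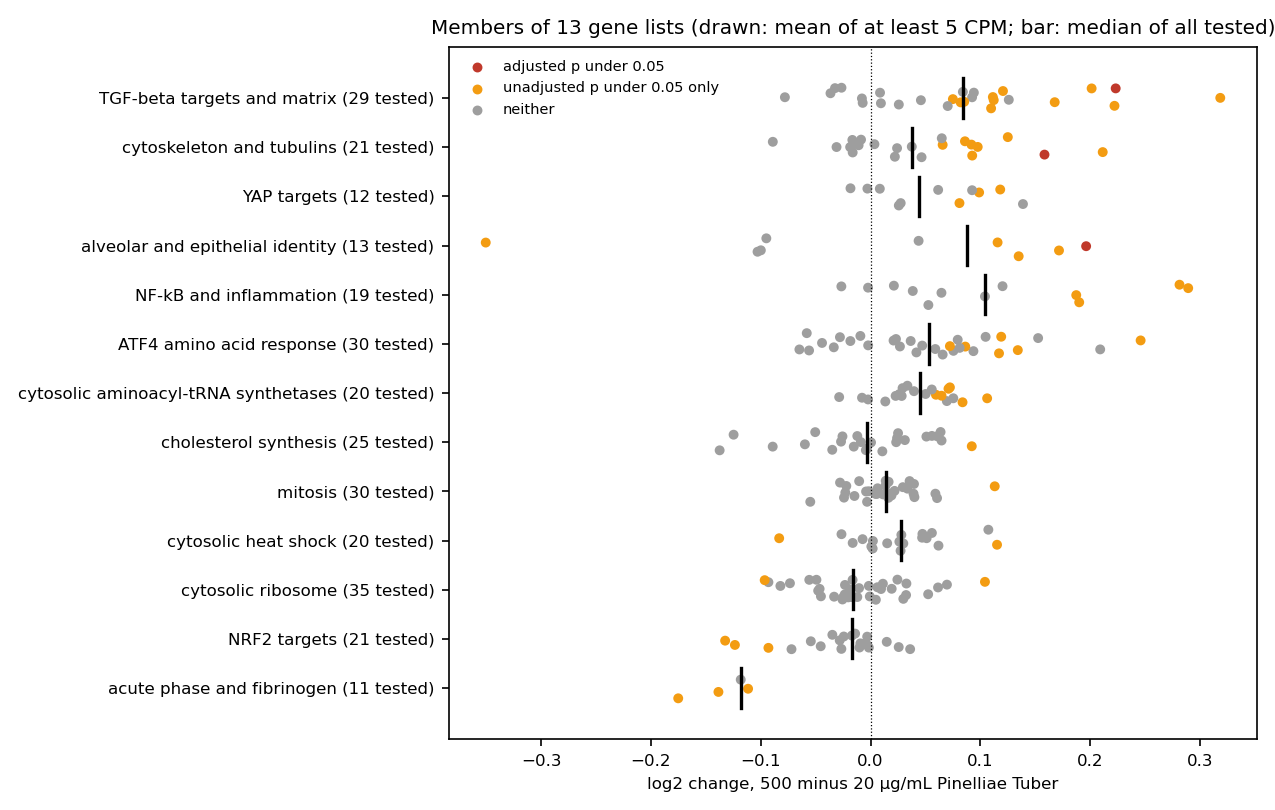
Log2 change from 20 to 500 µg/mL (x axis) of the members of 13 gene lists (rows) that averaged 5 CPM or more; each point is a gene and each black bar is the median of all members tested, whatever their level. Red points are the 3 called genes, TPM1 and CAV1 among them, and orange points have an unadjusted p under 0.05 only. Medians run from 0.10 for the inflammation list to -0.12 for the acute phase list.

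The lists of stress and metabolic programmes held no called gene. For comparison, 3.65% of all genes were higher and 2.8% lower at an unadjusted p, and 8180 of all 16582 lay above 0. The NF-kB and inflammation list had 0 called of 19, 5 higher and 0 lower at an unadjusted p, and a median of 0.10. The chemokine CXCL5 measured 95.2, 91.8 and 89.9 CPM against 76.3, 80.8 and 86.1 CPM (log2 change 0.19 ± 0.04, edgeR adjusted p = 0.0645), and the complement gene C3 36.1, 38.0 and 38.1 CPM against 32.7, 33.9 and 31.7 CPM (0.19 ± 0.05, edgeR adjusted p = 0.137). Neither gene overlapped between the doses, as was the case for 7.3% of all genes in this direction. The ATF4 list, the response to amino acid shortage, had 0 called of 30, 6 higher and 0 lower at an unadjusted p, and a median of 0.05. Its members TRIB3, PCK2 and ASNS had log2 changes of 0.12, 0.13 and 0.07 with edgeR adjusted p from 0.505 to 0.762. The 20 cytosolic aminoacyl-tRNA synthetases, which load tRNAs, had 0 called, 6 higher and 0 lower at an unadjusted p, and 17 above 0. AARS1 measured 309, 290 and 298 CPM against 278, 275 and 280 CPM (0.11 ± 0.03, edgeR adjusted p = 0.249).

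In the opposite direction, the 3 fibrinogen genes had log2 changes of -0.14 (FGA), -0.11 (FGB) and -0.18 (FGG). Their libraries did not overlap between the doses, as was the case for 5.99% of all genes in this direction. The acute phase and fibrinogen list had 0 called of 11, 0 higher and 3 lower at an unadjusted p, and 9 below 0. Of all 16582 genes tested, 3.65% were higher and 2.8% lower at an unadjusted p, and 8400 lay below 0. FGA measured 148, 142 and 139 CPM at the high dose and 161, 159 and 152 CPM at the low dose, FGB 171, 173 and 164 CPM against 194, 177 and 178 CPM. Their edgeR adjusted p were 0.243, 0.464 and 0.773, so none passed. The NRF2 list, antioxidant and detoxifying genes that are highly active in A549 because its KEAP1 gene is mutated, had 0 called of 21 and 0 higher and 3 lower at an unadjusted p, with 18 of 21 below 0 and a median of -0.02. NQO1, a quinone reductase, measured 1503, 1508 and 1517 CPM against 1652, 1575 and 1602 CPM (-0.09 ± 0.03, edgeR adjusted p = 0.388). AKR1C1 of the same list, a steroid and carbonyl reductase, and from other lists ALDH3A1, an aldehyde dehydrogenase, and CES1, a carboxylesterase, had log2 changes of -0.12, -0.20 and -0.20, with edgeR adjusted p of 0.26, 0.26 and 0.165. The drug metabolism and transport list as a whole had 10 of 21 members above 0 and 11 below. At an unadjusted p, 2 of its members were higher and 5 lower.

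Lists with few or no changes even at an unadjusted p included cholesterol synthesis (1 higher and 0 lower of 25), mitosis (1 and 0 of 30), the ER unfolded protein response (0 and 1 of 22), the interferon response (0 and 0 of 22), the nuclear respiratory chain (0 and 0 of 31), the cytosolic ribosome (1 and 1 of 35) and mucins and airway secretion (0 and 0 of 12). Among all genes tested, 3.65% were higher and 2.8% lower. MUC5AC, the main secreted mucin of the airway surface, measured 223, 234 and 237 CPM at the high dose and 242, 263 and 246 CPM at the low dose, with 163 to 196 CPM in vehicle. Its log2 change was -0.11 with a 95% interval from -0.30 to 0.07 and an edgeR adjusted p of 0.907. MUC5B, the second secreted airway mucin, measured 27.1, 30.8 and 29.4 CPM against 36.1, 34.8 and 30.7 CPM, which overlap (-0.22, 95% interval -0.45 to 0.01, edgeR adjusted p = 0.803). MUC1, a membrane mucin, was at 1.32 to 2.29 CPM in these 6 libraries. Of 12 genes followed whatever their values, 0 were called by edgeR and 2 had an unadjusted p under 0.05, CYP1B1 and HMGCS1. Intervals were narrow for HMOX1, a heme oxygenase induced by oxidative stress (log2 change 0.01, 95% interval -0.06 to 0.09), the p53 target CDKN1A (0.04, -0.04 to 0.12), the mitotic cyclin CCNB1 (0.01, -0.07 to 0.08) and the glucocorticoid target FKBP5 (-0.02, -0.12 to 0.08). They were wider for GREM1, a BMP antagonist (0.16, -0.05 to 0.37), DDIT3 of the stress response (0.07, -0.10 to 0.24) and CP, ceruloplasmin (-0.07, -0.29 to 0.15), which lay below 11 CPM.

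The medium dose did not lie between the others for several genes. Against 20 µg/mL, 5 genes were called at 100 µg/mL (0.0302%), 1 higher (0.00603%) and 4 lower (0.0241%). CYP1B1, a cytochrome P450 and a target of the dioxin receptor AhR, was the 1 that rose: it measured 59.7, 65.0 and 62.5 CPM at 20 µg/mL, 74.3, 76.6 and 75.2 CPM at 100 µg/mL, and 55.4, 57.8 and 53.3 CPM at 500 µg/mL. Its medium-dose libraries were above all others, including the vehicle at 54.5 to 58.8 CPM. The log2 change was 0.27 ± 0.05 from low to medium (edgeR adjusted p = 0.00656) and -0.44 ± 0.05 from medium to high (edgeR adjusted p = 2.57e-07). From low to high it was -0.17 ± 0.05 and did not pass (edgeR adjusted p = 0.243). CYP1A1, the most inducible AhR target, was scarce, at 0.83, 1.02 and 0.75 CPM at 20 µg/mL, 1.43, 1.35 and 1.21 CPM at 100 µg/mL, and 0.747, 0.661 and 0.896 CPM at 500 µg/mL. Its medium-dose libraries also lay above the rest, and no contrast passed (edgeR adjusted p = 0.774 from low to medium and 0.224 from medium to high).

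H19, an imprinted long non-coding RNA, measured 94.3, 87.2 and 88.4 CPM at 20 µg/mL, 75.9, 70.0 and 70.9 CPM at 100 µg/mL, and 87.7, 88.0 and 90.1 CPM at 500 µg/mL. It fell from low to medium (log2 change -0.32 ± 0.05, edgeR adjusted p = 0.0277) and rose from medium to high (0.29 ± 0.05, edgeR adjusted p = 0.0169), with no difference called between high and low (-0.02, 95% interval -0.13 to 0.09, edgeR adjusted p = 0.983). INSL4, an insulin-like peptide, fell from 20.6 ± 0.919 CPM (SD, n = 3) at the low dose to 15.2 ± 0.821 CPM at the medium dose (log2 change -0.44 ± 0.07, edgeR adjusted p = 0.00656), and stood at 18.6 ± 0.837 CPM at the high dose. BCAS1 fell from 12.7 ± 0.423 to 9.44 ± 0.531 CPM (-0.43 ± 0.08, edgeR adjusted p = 0.0364) and SCARA5, a scavenger receptor, from 28.3 ± 0.234 to 23.2 ± 0.649 CPM (-0.28 ± 0.06, edgeR adjusted p = 0.0357). Both had high-dose means between those of the other doses, 11.0 and 25.4 CPM. This count of 5 rests on single libraries. It was 3 without low-dose replicate 2, of which 2 were among the 5. It was 1 without low-dose replicate 1 or medium-dose replicate 3, and in both fits 0 of the 5 were called. Without low-dose replicate 3 or medium-dose replicate 2 it was 0, where 865 and 747 genes had an unadjusted p under 0.05. Over 13 alternatives CYP1B1 and INSL4 passed in 9, H19 in 8, BCAS1 in 7 and SCARA5 in 6. With all libraries DESeq2 called 12.

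**Figure D4:**
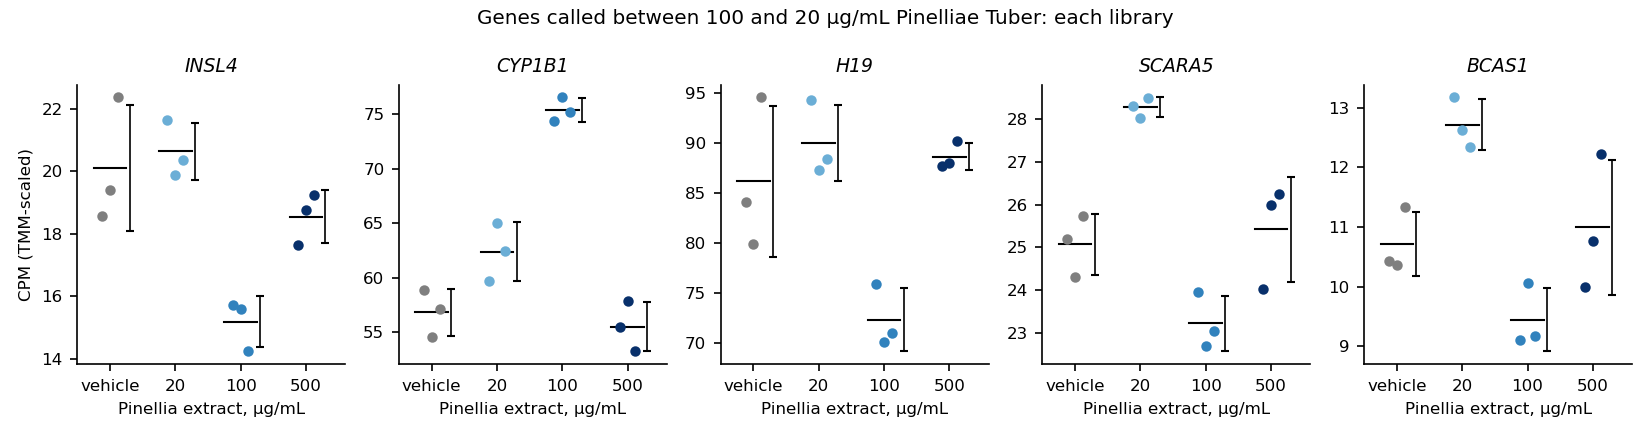
Levels in CPM (TMM-scaled, y axes not starting at 0) of the 5 genes called between 100 and 20 µg/mL, by vehicle and by dose in µg/mL (x axis). Points are libraries, horizontal bars are means and error bars are the SD of 3 libraries. CYP1B1 is highest at 100 µg/mL, at 74.3 to 76.6 CPM, and the other 4 genes have their lowest mean there.

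Between 100 and 500 µg/mL, 30 genes were called (0.181%), 28 higher at the high dose (0.169%) and 2 lower (0.0121%). This contrast uses the same high-dose libraries as the contrast with the low dose, so changes from the low dose are given here or above. CCDC80 rose by 0.24 on the log2 scale from medium to high (edgeR adjusted p = 0.00393), RGS2 by 0.37 (0.0151), LINC00707 by 0.26 (0.00726), CD44 by 0.18 (0.00537) and TPM1 by 0.14 (0.0258). For HAS3, CAV1, GLIPR1 and GNG4 the changes were 0.21, 0.12, 0.16 and 0.18, with edgeR adjusted p from 0.101 to 0.291. Among the called genes, the largest rise belonged to TM4SF4, a tetraspan membrane protein. Its levels were 20.0, 19.9 and 19.9 CPM at 100 µg/mL and 28.8, 28.5 and 24.7 CPM at 500 µg/mL, with 21.4 to 23.3 CPM at 20 µg/mL. The rise was 0.46 ± 0.07 from medium (edgeR adjusted p = 0.000768) and 0.30 ± 0.07 from low (0.0682). ANXA3, a calcium-dependent membrane-binding annexin, rose by 0.28 ± 0.05 (edgeR adjusted p = 0.00428), from 36.1 ± 1.25 to 43.8 ± 1.42 CPM (SD, n = 3). KRT4, a keratin of stratified mucosa, rose by 0.39 ± 0.07 (edgeR adjusted p = 0.00537), CXCL5 by 0.23 ± 0.04 (0.00726) and SPARC, a matrix glycoprotein, by 0.28 ± 0.06 (0.0496). ITGB4, an integrin subunit of hemidesmosomes, SMTN, smoothelin of contractile cells, and PMEPA1 rose by 0.27, 0.25 and 0.14 (edgeR adjusted p = 0.0326, 0.0169 and 0.0388). JAG1 rose by 0.15 ± 0.03 (edgeR adjusted p = 0.0238). EXO1, a nuclease of DNA repair, fell by 0.18 ± 0.04 (edgeR adjusted p = 0.0479). From low to high, KRT4, ITGB4, SMTN and EXO1 changed by 0.14, 0.19, 0.15 and -0.13 and did not pass (edgeR adjusted p from 0.372 to 0.739). Nor did ANXA3 and SPARC, at 0.21 and 0.29 (edgeR adjusted p = 0.0682 and 0.0645). KRT4 averaged 32.4, 27.2 and 35.8 CPM at 20, 100 and 500 µg/mL. Of the 28 genes that rose, 24 had a lower mean at 100 than at 20 µg/mL, and 25 had a lower mean at 100 µg/mL than in vehicle. Among all 8268 genes with a positive change from medium to high these shares were 65.7% and 59.3%, and genes chosen for a rise from the medium dose are favoured to have a low mean there. The count of 30 fell with every library left out: to 4, 10 and 5 without high-dose replicate 1, 2 or 3, and to 5, 5 and 13 without medium-dose replicate 1, 2 or 3. Genes named here outside the naming rule, and the further list members above, were chosen after their values were seen.

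The change with dose was also set against that of fresh ginger over the same doses, as a difference of differences in a fit of all 60 libraries. Of 17870 genes tested, the dose change differed for 449 (2.51%), 289 with a higher change for Pinellia (1.62%) and 160 with a lower one (0.895%). Among the 449, the fresh ginger dose change was itself called for 389, the Pinellia dose change for 14, and neither for 50. In that fit the dose change was called for 1010 genes with fresh ginger (5.65%) and for 21 with Pinellia (0.118%). Among the 9 genes described above that rose with Pinellia, the difference passed for 6. The 9 were chosen for a rise in the same Pinellia libraries, which favours a positive difference, so nothing is read from this count. CCDC80 went from 147 ± 5.69 to 176 ± 6.80 CPM (SD, n = 3) with Pinellia and from 149 ± 6.07 to 107 ± 0.930 CPM with fresh ginger, log2 changes of 0.26 and -0.48 that differ by 0.74 ± 0.06 (SE, edgeR adjusted p = 1.92e-14). RGS2 went from 14.6 ± 0.330 to 12.9 ± 0.592 CPM with fresh ginger, and its dose changes differed by 0.64 ± 0.11 (edgeR adjusted p = 2.25e-05). GNG4, GLIPR1, CAV1 and TPM1 differed by 0.47, 0.37, 0.21 and 0.16, with edgeR adjusted p of 0.000877, 0.00155, 0.00101 and 0.0437. The call of TPM1 passed in 6 of 17 alternatives (edgeR adjusted p up to 0.232). For CD44, HAS3 and LINC00707 the difference did not pass. Its 95% interval was -0.05 to 0.13 for CD44, which went from 174 to 189 CPM with fresh ginger, 0.03 to 0.34 for HAS3 and 0.02 to 0.29 for LINC00707.

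The 5 largest differences in each direction among called genes that averaged 5 CPM or more are described here, with CYP1A1 beside them. H19 fell with fresh ginger from 106 ± 3.81 to 48.1 ± 1.16 CPM (SD, n = 3) and averaged 89.4 and 87.9 CPM at the low and high Pinellia doses, a difference of 1.11 ± 0.08 (edgeR adjusted p = 3.71e-14). NR4A1, an orphan nuclear receptor induced early by stimuli, went from 38.1 to 19.6 CPM with fresh ginger and from 37.4 to 36.2 CPM with Pinellia, and differed by 0.91 ± 0.07 (edgeR adjusted p = 1.92e-14). NPTX1, a secreted pentraxin, went from 321 to 201 CPM with fresh ginger and from 335 to 373 CPM with Pinellia, and differed by 0.83 ± 0.06 (edgeR adjusted p = 1.21e-17). SUSD2 and CP differed by 0.83 ± 0.12 and 0.79 ± 0.17 (edgeR adjusted p = 2.06e-06 and 0.00184). In the other direction, CYP1B1 went from 66.8 to 125 CPM with fresh ginger and from 62.0 to 55.1 CPM with Pinellia, a difference of -1.07 ± 0.06 (edgeR adjusted p = 4.77e-20). CYP1A1 differed by -1.82 ± 0.30 (edgeR adjusted p = 2.07e-05), at 0.835 and 2.61 CPM for the fresh ginger doses. The metallothioneins MT1X and MT2A, which bind zinc and copper, went from 8.99 to 20.0 CPM and from 46.5 to 99.1 CPM with fresh ginger and stayed at 8.53 and 8.64 CPM and at 41.8 and 43.9 CPM with Pinellia. Their differences were -1.13 ± 0.17 and -1.02 ± 0.19 (edgeR adjusted p = 1.11e-05 and 0.00046). CHAC1, a glutathione-degrading target of ATF4, differed by -1.09 ± 0.16 (edgeR adjusted p = 1.41e-06). ENSG00000219410, a gene with no symbol found, went from 7.09 to 9.49 CPM with fresh ginger and from 10.6 to 6.33 CPM with Pinellia. Its log2 changes of 0.38 and -0.75 did not pass by themselves (edgeR adjusted p = 0.435 and 0.357), and their difference of -1.13 ± 0.32 did (edgeR adjusted p = 0.0487). That call passed in 5 of 17 alternatives.

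By list, the difference was higher for Pinellia for 10 of 30 TGF-beta and matrix genes and lower for 0, with a median of 0.21, against 1.62% and 0.895% of all genes and a median of -0.0034. COL5A1 went from 115 to 129 CPM with Pinellia and from 116 to 80.0 CPM with fresh ginger, and PMEPA1 from 298 to 322 and from 298.5 to 219 CPM. The cytoskeleton list had 9 higher and 1 lower of 21, and mitosis genes 6 higher and 0 lower of 30, their median log2 change being -0.09 with fresh ginger and 0.01 with Pinellia. The ATF4 list had 21 lower of 30 and a median difference of -0.39, since its median dose change was 0.49 with fresh ginger and 0.05 with Pinellia. ASNS, asparagine synthetase, went from 116 to 189 CPM with fresh ginger and from 116 to 122 CPM with Pinellia. The aminoacyl-tRNA synthetases had 6 lower of 20, the NRF2 targets 6 lower of 21, the AhR targets 4 lower of 8 and the metallothioneins 4 lower of 5. All 3 fibrinogen genes were higher by the difference: FGB went from 184 to 122 CPM with fresh ginger and from 182 to 168 CPM with Pinellia.

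**Figure D5:**
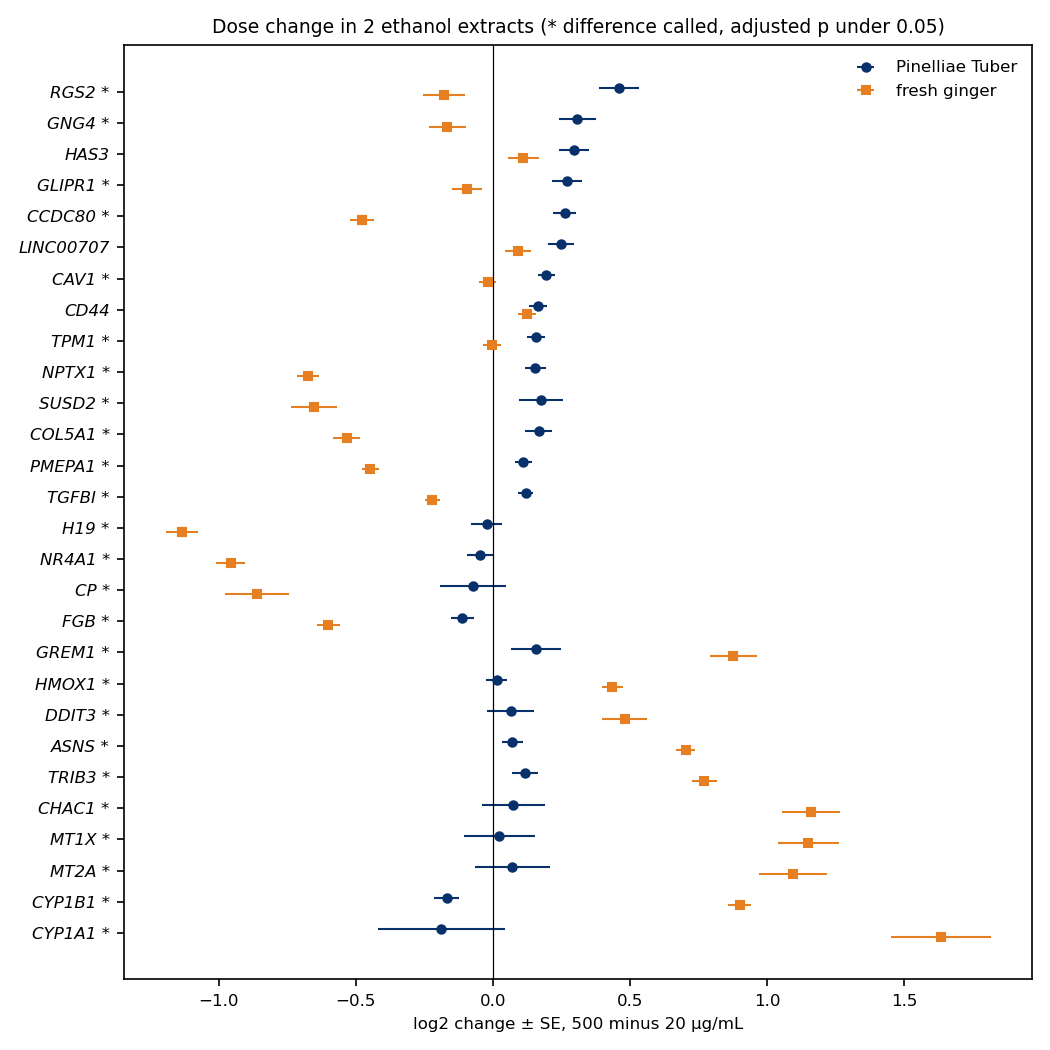
Log2 change ± SE from 20 to 500 µg/mL (x axis) for Pinelliae Tuber (dark blue circles) and fresh ginger (orange squares), 3 libraries at each dose, for 28 genes (rows). Stars mark the genes whose changes differ at an adjusted p under 0.05, all but HAS3, LINC00707 and CD44. The Pinellia changes stay between -0.19 and 0.46, while those of fresh ginger run from -1.14 for H19 to 1.63 for CYP1A1.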

How the data were processed

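Messenger RNA libraries were prepared with a directional kit and sequenced as paired-end reads, per the labels' protocols. The submitters' processing notes name FastQC 0.11.9, Trim Galore 0.6.5, STAR 2.7.3a, RSEM 1.3.3 and GRCh38 (hg38). Which annotation release they used is not given in the sources used here. In all, the authors deposited 1 table of RSEM expected counts for 60675 genes (24.4% of its values above 0 are not whole). Of its 269 value columns, 60 are samples of this series, and 209 others were not used. Expected counts were rounded to whole numbers, genes were filtered with filterByExpr (minimum count 10), scaled by TMM and tested with edgeR 4.0.16 (R 4.3.3, robust quasi-likelihood, Benjamini-Hochberg adjustment, calls at an adjusted p under 0.05). The fit for the doses held 21 libraries, 9 of Pinelliae Tuber, 9 of Scutellariae Radix and 3 of vehicle, and only Pinellia doses entered the contrasts. The comparison with fresh ginger used all 60. Steps were tested on simulated data. Gene positions are from GENCODE 29, and 57055 of the table's IDs matched it.

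Named genes are up to 12 in each direction with the largest change among called genes that averaged 5 CPM or more and did not overlap between doses, or else the 6 with the lowest p, together with 12 genes followed whatever their values, up to 3 called members of any list with at least 3, and the 5 largest differences from fresh ginger in each direction. The members, the comparison and the 46 lists were chosen with earlier results of these data known. Some genes that the rule names are not reported here. Alternatives were DESeq2 1.42.0, other size factors, no filter, a replicate term, other sets of libraries and leaving out each library.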

Additional observations from a re-analysis of the deposited data

Results flagged for a closer look

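The following genes had dose changes (500 against 20 µg/mL) that differed between Pinelliae Tuber and fresh ginger by the test of the difference itself (edgeR, adjusted p under 0.05, 3 libraries at each dose of each extract). Values are the Pinellia change minus the fresh ginger change, in log2 units. Of the genes called higher with Pinellia, CCDC80 differed by 0.74, RGS2 by 0.64, GNG4 by 0.47, GLIPR1 by 0.37, CAV1 by 0.21 and TPM1 by 0.16. These genes were chosen for a rise in the same Pinellia libraries, which favours a positive difference.

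Matrix, adhesion and contractile genes with a higher change for Pinellia were COL5A1 (0.7), PMEPA1 (0.56), COL4A1 (0.49), TAGLN (0.42), TGFBI (0.34), CDH1 (0.29), CDH2 (0.26), VCL (0.26), ACTN1 (0.26) and TPM4 (0.2). They were chosen after their values were seen. Their fresh ginger changes ran from -0.53 for COL5A1 to -0.13 for VCL. None of their Pinellia changes passed by itself in that fit (edgeR adjusted p from 0.0604 to 0.839). Among other genes with a higher change were H19 (1.11), NR4A1 (0.91), NPTX1 (0.83), SUSD2 (0.83), CP (0.79), TM4SF4 (0.71), FGB (0.49), FGG (0.44), FGA (0.41) and NRG1 (0.22). Of these, H19, NR4A1, CP, FGA, FGB and FGG were below 0 with both extracts, from -0.18 to -0.02 with Pinellia and from -1.14 to -0.55 with fresh ginger.

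Other genes had a lower change for Pinellia. CYP1A1 differed by -1.82 and CYP1B1 by -1.07. MT1X differed by -1.13 and MT2A by -1.02. The values were -1.09 for CHAC1, -0.65 for TRIB3, -0.63 for ASNS, -0.6 for PCK2 and -0.42 for DDIT3. GREM1 differed by -0.72, HMOX1 by -0.42 and NQO1 by -0.16. The gene ENSG00000219410, for which no symbol was found, differed by -1.13 at an adjusted p of 0.0487, just inside the threshold, and its low-dose Pinellia libraries spread widely (10.6 ± 3.26 CPM, SD, n = 3). Several of these calls were lost under most of the 17 alternatives: the difference passed in 5 for ENSG00000219410, in 6 for TPM1, and in 7 for DDIT3 and for NQO1. It passed in 13 for CDH1 and in 16 for MT2A.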

How the results depend on the processing

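No named change reversed in direction while called. Over the alternatives, 3668 gene values kept their side of the threshold, 259 no longer passed and 132 newly passed. For high against low dose (11 calls), 58 genes were called without the filter, 29 with DESeq2, 36 with the 6 libraries alone, 66 with the 9 Pinellia libraries alone and 21 with all 60 libraries. DESeq2 gave an adjusted p for 5 of the 11 called genes and called all 5. For high against medium (30 calls) the counts were 68 without the filter, 108 with 6 libraries and 101 with 9. For medium against low (5 calls) they were 38 without the filter, 12 with DESeq2, 23 with 6 libraries and 18 with 9. The cause was not tested. Leaving out 1 library gave 2 to 12 calls for high against low, 4 to 13 for high against medium, 0 to 5 for medium against low and 338 to 406 for the comparison with fresh ginger (449 calls). CCDC80 passed in all 13 alternatives and RGS2 in the 12 that gave a value. CAV1 failed only without low-dose replicate 1 (adjusted p = 0.0675, edgeR). The other described calls were lost more often, each when 1 library was left out: CD44 and TPM1 passed in 9 of 13 (edgeR adjusted p up to 0.197 and 0.269), HAS3, GNG4 and LINC00707 in 9 of 12 (up to 0.188, 0.167 and 0.305) and GLIPR1 in 6 of 12 (up to 0.257). All 6 failed without low-dose replicate 1.

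Replicate numbers are shared across doses, but deviations of same-numbered libraries correlated between -0.201 and 0.084, so the numbers were not taken as pairs. With the replicate block the counts were 15, 35 and 7 for the dose contrasts and 455 for fresh ginger. With 3 libraries a dose the median standard error was 0.054 log2 units, and the smallest change called between the high and low doses was 0.16, and no smaller change was called in that contrast.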
